A study of Mus musculus with 4 samples.

Results

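The tumour necrosis factor (TNF) ligand and receptor superfamily was followed in mRNA libraries of isolated mouse islets. Its members were picked by gene symbol alone: every row named Tnfsf or Tnfrsf with a number, together with Tnf, Lta, Ltb, Ltbr, Fas, Fasl, Cd40, Cd40lg, Cd27, Cd70, Eda2r and Edar. This gave 43 of the 24421 rows of the deposited table, 17 ligand genes and 26 receptor genes. All islets came from wild type C57BL/6 mice and were kept in RPMI medium with 11 mM glucose. Of the 4 libraries, 2 were of control islets, which the labels call untreated, and 2 were of islets that received cytoEV daily over 48 h before RNA was taken. From the series title, cytoEV was read as small extracellular vesicles of pro-inflammatory beta cells. The dose is not given, no treatment time is given for the control islets, and the control columns of the table carry a name that can be read as control EV. Whether the control islets received vesicles of other cells is therefore not known here. No label says if the 2 samples of a group came from different mice or cultures, so the p-values cover no more than how these particular samples varied, which may be technical.

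TNF ligands are mostly trimeric proteins of the cell membrane, several of which can be cut off and act at a distance. They bind receptors with cysteine-rich repeats outside the cell. Receptors with a death domain can recruit FADD and caspase 8 and start apoptosis, others bind TRAF adaptors and switch on the NF-kB pathway, and decoy receptors bind ligand without passing on a death signal. In islets TNF is best known as one of the cytokines that, together with interleukin 1 and interferon gamma, damages beta cells in culture.

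Depth lay between 129726756 and 156183968 reads a library, as recovered from the deposited CPM values (counts scaled to a library total of 1000000), and 3 reads corresponded to between 0.0192 and 0.0231 CPM. The libraries looked like islets, with 17.48% to 20.7% of the reads on Ins1 and Ins2. Macrophage markers were present (15 of 15, summed level 346.1 to 352.2 CPM in control and 347.2 to 359.7 CPM in cytoEV islets). Of 12 T and NK cell markers 7, among them Cd3d, Cd3e and Cd3g, had 0 reads in all libraries, and the list summed to between 1.07 and 1.42 CPM. Of 6 B cell markers, Cd79b, Ms4a1 and Blk were among those at 0 in all libraries.

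Of the 43 members, 20 reached 1 CPM in at least 2 libraries and were tested. Tnfsf10, Tnf and Tnfrsf14 were higher in cytoEV islets, and Tnfsf9, Tnfrsf23, Tnfrsf1a and Tnfrsf12a were lower (limma on log2(CPM + 1), Benjamini-Hochberg adjusted p under 0.05 over all 12780 tested genes). Those 7 calls are 35% of the tested members, beside 6.67% of all tested genes. On the recovered reads edgeR called the same 7 members (5.67% of all tested genes), and DESeq2 called these and Ltbr, Tnfrsf21 and Tnfrsf1b (12.4% of all tested genes). For direction, 3 of 20 members were higher, beside 3.16% of all genes, and 4 were lower, beside 3.51%. The median log2 change was −0.02 over the tested members and 0.01 over all tested genes. This median depended on the setting. With a filter of 5 CPM, which left 14 members, the medians were −0.29 and 0.003. Without control replicate 2 they were −0.13 and 0.03. The groups did not overlap for 15 of the 20 members, which is 75% beside 53.9% of all tested genes. The shares of members called, called higher and not overlapping include Tnf, which reached 1 CPM in the cytoEV libraries only. The members' median of −0.02 includes it too. A single member tested by exact permutation of 2 against 2 libraries could reach p = 0.333 at the least, and the calls therefore depend on limma's pooling of variance across genes. Without control replicate 1, 7 members were called lower and 4 higher (Tnfrsf21, Tnfrsf22, Tnfrsf1b and Tnfrsf11b were added). Without control replicate 2 these counts were also 7 and 4 (Ltbr, Tnfrsf21, Tnfrsf1b and Eda2r were added). With no filter on low values 1 member, Tnfsf9, was called lower, and Tnfsf10 and Tnf were called higher.

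**Figure D1:**
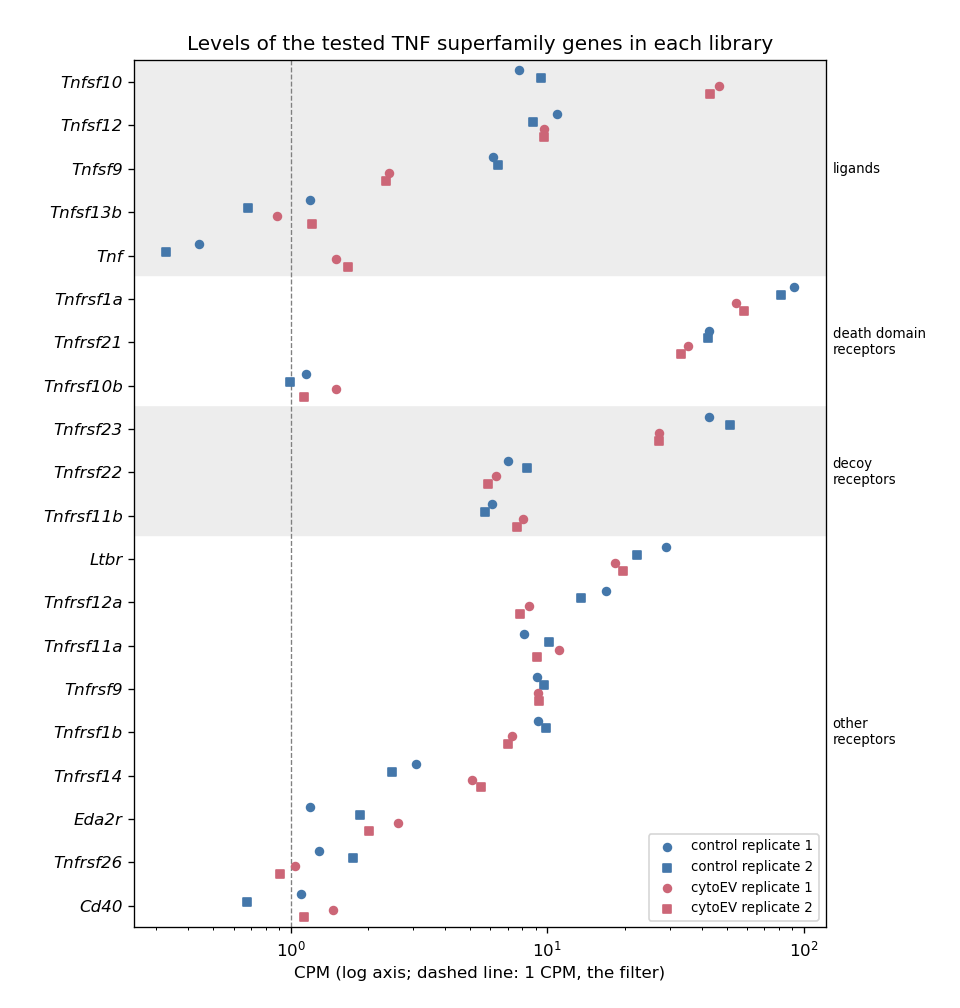
CPM of the 20 tested members (log axis) in each library, circles for replicate 1 and squares for replicate 2, control in blue and cytoEV in red, grouped by role. Tnfsf10 lies between 43.1 and 46.5 CPM in cytoEV islets and between 7.72 and 9.41 CPM in control islets, whereas the receptor Tnfrsf1a lies lower in cytoEV islets.

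The promoter sequences of 4 members that passed the test are printed because 2 of these genes were higher and 2 lower in the same libraries. The sequences are RefSeq's (GRCm38.p6), which lists promoters for 33 of the 43 members. Each is the longest stretch of the 250 bases before the listed start that lies in no GENCODE M21 exon, written 5′ to 3′ on the gene's strand. Capitals mark matches to the NF-kB core GGNNNTTCC, the GAS motif TTCNNNGAA or the ISRE core GAAANNGAA, searched on both strands.
Tnfsf10, chr3:27316827-27317027, plus strand: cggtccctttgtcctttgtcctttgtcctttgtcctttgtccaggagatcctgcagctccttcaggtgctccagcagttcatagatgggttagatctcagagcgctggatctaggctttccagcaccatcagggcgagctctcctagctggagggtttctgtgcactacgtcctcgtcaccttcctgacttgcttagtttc
Tnf, chr17:35202008-35202257, minus strand: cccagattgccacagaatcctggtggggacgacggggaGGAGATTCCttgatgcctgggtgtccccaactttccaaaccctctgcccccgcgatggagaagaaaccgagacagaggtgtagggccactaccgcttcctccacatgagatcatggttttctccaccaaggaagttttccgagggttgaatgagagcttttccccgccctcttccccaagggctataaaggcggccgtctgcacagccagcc
Tnfrsf1a, chr6:125349509-125349722, plus strand: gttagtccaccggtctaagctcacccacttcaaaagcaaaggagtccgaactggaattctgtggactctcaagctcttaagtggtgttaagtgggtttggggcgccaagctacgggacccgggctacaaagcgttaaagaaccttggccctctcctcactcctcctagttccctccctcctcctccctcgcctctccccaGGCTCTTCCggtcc
Tnfrsf23, chr7:143685876-143686125, minus strand: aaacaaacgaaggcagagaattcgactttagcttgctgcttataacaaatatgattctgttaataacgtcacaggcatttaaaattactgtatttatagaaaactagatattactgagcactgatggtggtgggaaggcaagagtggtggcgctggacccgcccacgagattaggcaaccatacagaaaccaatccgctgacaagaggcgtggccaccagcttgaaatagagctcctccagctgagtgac

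In the Tnf promoter the NF-kB core matched from 212 to 204 bases before the start, and in that of Tnfrsf1a from 14 to 6 bases before it. The Tnfrsf1a window also held a GAS match from 244 to 236 bases before the start, in the part not printed. GENCODE M21 starts Tnfrsf1a further upstream, at base 125349362 of chromosome 6, so this whole window lies inside the annotated gene. No motif was found in the windows of Tnfsf10, Tnfrsf23 and Tnfrsf12a. Tnfrsf14 had an ISRE core from 63 to 55 bases before its listed start, inside a GENCODE exon. Over windows from 250 bases before to 50 after the start, the NF-kB core was found in 8 of 37 member promoters (21.6%) and 18.5% of all 32851 promoters. The GAS motif was found in 9 member promoters (24.3%) and 8.3% of all. For the ISRE core these were 6 promoters (16.2%) and 8.56%. Apart from Tnfrsf1a, the GAS matches lay in members that were not called or not tested, such as Tnfrsf1b, Lta, Ltb and Fas. These matches describe letters in short windows and show no binding.

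Among the ligand genes, Tnfsf10 had the largest change of all tested members. It encodes TRAIL, which binds death receptors and is a known interferon-responsive gene. The gene lies on chromosome 3 (27317028 to 27342427, plus strand, GRCm38). Its levels were 7.72 and 9.41 CPM in control and 46.5 and 43.1 CPM in cytoEV islets. Both cytoEV libraries lay far above both control libraries, a 5.23-fold ratio of the means. The change in log2(CPM + 1) was 2.26 ± 0.12 (SE, limma adjusted p = 1.38e-05), and it passed under all 16 alternatives tried for it (adjusted p between 1.5e-75 and 0.00607). Per kilobase of exon, Tnfsf10 went from place 13 among the 43 members in control islets (1.63 CPM per kb) to place 2 in cytoEV islets (8.51 CPM per kb). It held 27.8% and 34.3% of the summed CPM of all 17 ligand genes in control islets, and 74.6% and 72.5% in cytoEV islets. The summed CPM of the other 16 ligand genes was 20.1 and 18.0 in control and 15.9 and 16.4 in cytoEV islets.

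Tnf, which encodes the founding cytokine of the family, was low in all libraries. It had 0.439 and 0.327 CPM in control islets (57 and 51 reads) and 1.51 and 1.67 CPM in cytoEV islets (208 and 227 reads). The groups did not overlap, and the ratio of the mean CPM was 4.15-fold. It reached 1 CPM in the cytoEV libraries only, the single member that entered the test through 1 group, so that its call is favoured by the filter. The change in log2(CPM + 1) was 0.90 ± 0.13 (SE, limma adjusted p = 0.00485), and every one of the 15 alternatives that could test it called it (adjusted p between 1.25e-07 and 0.0183). Its size depended on the scale: a pseudocount of 5 gave a log2 change of 0.29, one of 0.1 gave 1.81, and edgeR gave 2.05 from the recovered reads. The neighbouring ligand genes Lta and Ltb lie with Tnf in 10.9 kb of chromosome 17 (35194439 to 35205351). Lta, which encodes lymphotoxin alpha, had 17 and 65 reads in control and 10 and 25 reads in cytoEV islets. Ltb, for its partner lymphotoxin beta, had 6 and 3 reads in control and 0 and 0 in cytoEV islets. Both stayed under the filter and were not tested, and the Lta values overlap between the groups.

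Tnfsf9 was the ligand gene that fell. It encodes CD137 ligand, which costimulates T cells through Tnfrsf9 and is made mainly by antigen-presenting cells. The gene lies on chromosome 17 (57105325 to 57107757, plus strand), within 88.9 kb of Cd70 and Tnfsf14. It had 6.15 and 6.44 CPM in control islets against 2.41 and 2.36 CPM in cytoEV islets. Within each group the libraries nearly coincided, and the control mean was 2.64 times the cytoEV mean. The change in log2(CPM + 1) was −1.11 ± 0.12 (SE, limma adjusted p = 0.000917), and it passed under all 16 alternatives (adjusted p between 2.52e-11 and 0.0245), with a size of −0.61 at a pseudocount of 5. The gene on the other strand, Gm11110, overlaps 14.9% of the exon length of Tnfsf9 and had 1.98 and 2.32 CPM in control and 1.20 and 1.40 CPM in cytoEV islets. The library kit keeps the strand per the labels, but no source used here says whether the counting did, so reads of the overlap could belong to either. The receptor gene Tnfrsf9 stood at 9.13 and 9.67 CPM in control and 9.23 and 9.26 CPM in cytoEV islets. These values overlap, and the log2 change was −0.02 ± 0.11 (SE, limma adjusted p = 0.932).

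Of the other 14 ligand genes, Tnfsf12 and Tnfsf13b were tested and did not pass. Tnfsf12, which encodes TWEAK, had 10.9 and 8.79 CPM in control and 9.70 and 9.71 CPM in cytoEV islets. Its log2 change was −0.01 ± 0.13 (SE). Tnfsf12 shares 46.8% of its 50-base stretches with other gene models, mainly the overlapping gene Tnfsfm13, so its own level is uncertain. Tnfsf13b, for the B cell survival factor BAFF, lay across the filter with 1.19 and 0.685 CPM in control and 0.884 and 1.21 CPM in cytoEV islets. Just outside the filter, Tnfsf13, for the related factor APRIL, had between 0.928 and 0.986 CPM in the 4 libraries. It shares 57.3% of its stretches with other gene models.

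Of the receptor genes for TRAIL, Tnfrsf23 passed the test, and Tnfrsf10b and Tnfrsf22 did not. Differences between these receptor genes were not tested. In mouse, Tnfrsf10b is the TRAIL receptor that signals death, and Tnfrsf22 and Tnfrsf23 encode decoy receptors that bind TRAIL. Tnfrsf10b had 149 and 156 reads in control and 207 and 154 reads in cytoEV islets, all close to the filter. The CPM ranges overlap, and the log2 change was 0.16 ± 0.14 (SE, limma adjusted p = 0.548). Tnfrsf23 fell. It had 42.8 and 51.3 CPM in control islets and 27.2 and 27.2 CPM in cytoEV islets, and the lowest control library was above both cytoEV libraries. The change in log2(CPM + 1) was −0.76 ± 0.11 (SE, limma adjusted p = 0.00502), with adjusted p between 6.24e-10 and 0.0549 over 16 alternatives. The highest of these was with no filter, the only alternative that lost the call. Its neighbour Tnfrsf22 had 7.01 and 8.36 CPM in control and 6.32 and 5.89 CPM in cytoEV islets. The groups do not overlap, but the log2 change of −0.29 ± 0.13 did not pass (SE, limma adjusted p = 0.219). It passed without control replicate 1 (adjusted p = 0.0365), in a range of 0.0365 to 0.826 over 16 alternatives.

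Tnfrsf26, Tnfrsf22 and Tnfrsf23 lie within 78.2 kb of chromosome 7 (143607659 to 143685872, minus strand, GRCm38). Of the 50-base stretches of Tnfrsf23, 19.3% also occur in other genes, mostly in Tnfrsf22, and 27.4% of those of Tnfrsf22 occur mostly in Tnfrsf23. Reads of these stretches could have been assigned to either gene, so the split between both values is uncertain. Tnfrsf26, the remaining gene of the cluster, had 1.29 and 1.75 CPM in control and 1.04 and 0.911 CPM in cytoEV islets. The groups did not overlap for these 3 genes, as for 53.9% of all tested genes, and only Tnfrsf23 passed the test. Tnfrsf11b encodes osteoprotegerin, a secreted decoy for RANK ligand that also binds TRAIL. It went the other way, with 6.11 and 5.69 CPM in control and 8.04 and 7.61 CPM in cytoEV islets. Its log2 change of 0.35 ± 0.12 did not pass (SE, limma adjusted p = 0.108), except without control replicate 1 (adjusted p = 0.0339 in a range of 0.0339 to 0.788 over 16 alternatives).

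**Figure D2:**
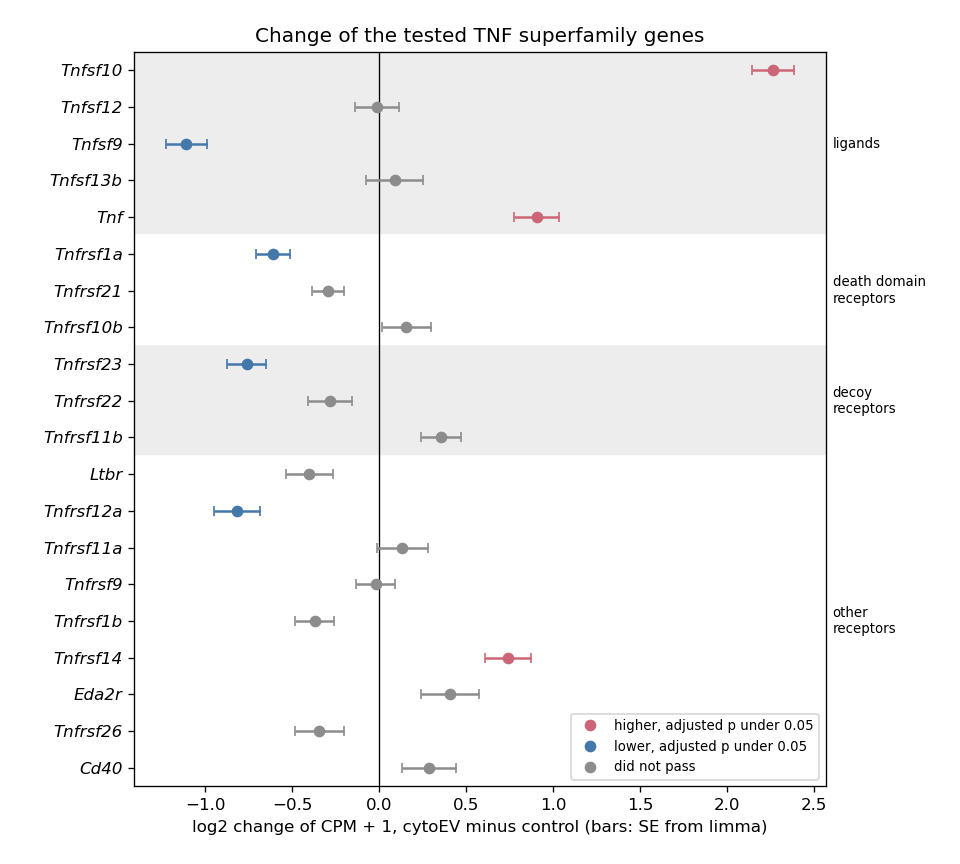
Change of log2(CPM + 1), cytoEV minus control, with limma's SE for the 20 tested members, grouped by role. The members that passed are in colour: Tnfsf10 at 2.26, Tnf at 0.90 and Tnfrsf14 at 0.74 in red, and Tnfsf9, Tnfrsf12a, Tnfrsf23 and Tnfrsf1a in blue between −1.11 and −0.61.

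Tnfrsf1a was the most abundant member. It encodes TNF receptor 1, the death domain receptor through which TNF activates NF-kB and can kill cells. Its levels were 91.5 and 81.2 CPM in control islets and 54.2 and 58.3 CPM in cytoEV islets. The groups did not overlap, and the log2 change was −0.61 ± 0.10 (SE, limma adjusted p = 0.00802). Leaving out cytoEV replicate 1 ended the call (adjusted p = 0.128), and so did using no filter (0.0581), in a range of 1.06e-06 to 0.128 over 16 alternatives. The other receptor for TNF, Tnfrsf1b, lacks a death domain and had 9.19 and 9.91 CPM in control and 7.28 and 7.02 CPM in cytoEV islets. It was lower in both cytoEV libraries, but its log2 change of −0.37 ± 0.11 did not pass (SE, limma adjusted p = 0.0918). DESeq2 called it lower (adjusted p = 0.0430), as did limma without control replicate 1 and without control replicate 2 (0.0222 and 0.0459), in a range of 0.0222 to 0.616 over 16 alternatives. Thus Tnf was higher in the libraries in which Tnfrsf1a was lower.

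Among the other death domain receptors, Tnfrsf21, which encodes death receptor 6, had 42.5 and 42.1 CPM in control and 35.3 and 33.2 CPM in cytoEV islets. Its log2 change of −0.30 ± 0.09 did not pass (SE, limma adjusted p = 0.0993). It passed in DESeq2 (adjusted p = 0.0339) and without control replicate 1 or 2 (0.0229 and 0.0114), in a range of 0.0114 to 0.79 over 16 alternatives. Fas, the receptor for Fas ligand that is known to rise in beta cells exposed to cytokines, stayed under the filter. It had 60 and 67 reads in control and 93 and 63 reads in cytoEV islets, or between 0.429 and 0.674 CPM. Fasl, its ligand gene, had 6 reads in cytoEV replicate 1 and 0 in the other libraries. Tnfrsf25, which encodes death receptor 3, had 20 and 13 reads in control and 8 and 4 reads in cytoEV islets. Edar, the ectodysplasin receptor, had reads in replicate 1 of each group only, 11 and 17.

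Of the receptors that signal through TRAF adaptors, Tnfrsf14 rose and Tnfrsf12a fell. Tnfrsf14 encodes HVEM, which binds the ligand LIGHT (Tnfsf14) and the inhibitory lymphocyte receptor BTLA. The gene lies on chromosome 4 (154921933 to 154928563, minus strand). It had 3.09 and 2.49 CPM in control islets and 5.11 and 5.52 CPM in cytoEV islets. Both cytoEV libraries were above both control libraries, and the log2 change was 0.74 ± 0.13 (SE, limma adjusted p = 0.0134). It was 0.41 with a pseudocount of 5, and adjusted p lay between 0.000157 and 0.0841 over 16 alternatives, of which the one with no filter lost the call. Its ligand gene Tnfsf14 had 6 reads in control replicate 2 and 0 in the other libraries.

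Tnfrsf12a encodes Fn14, the TWEAK receptor, which is known as a gene of injury and growth factor responses. The gene lies on chromosome 17 (23675445 to 23677468, minus strand). It had 16.9 and 13.5 CPM in control islets and 8.48 and 7.84 CPM in cytoEV islets. The lower control library was still above both cytoEV libraries. The change in log2(CPM + 1) was −0.82 ± 0.13 (SE, limma adjusted p = 0.0083), in a range of 6.4e-07 to 0.0788 over 16 alternatives, the highest again with no filter. The ligand gene Tnfsf12 differed by less than the spread between the control libraries, as given above.

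Ltbr encodes the lymphotoxin beta receptor, which drives the non-canonical NF-kB pathway. It lies beside Tnfrsf1a and Cd27 within 129.9 kb of chromosome 6 (125232622 to 125362484). Its levels were 29.0 and 22.4 CPM in control and 18.4 and 19.7 CPM in cytoEV islets. All cytoEV values were lower, but the control libraries differed widely, and the log2 change of −0.40 ± 0.13 did not pass (SE, limma adjusted p = 0.114). It was called in DESeq2 (adjusted p = 0.0279) and without control replicate 2 (0.000525), in a range of 0.000525 to 0.69 over 16 alternatives. Cd27, a T cell costimulatory receptor, had 3 reads in control replicate 2 and 0 elsewhere.

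Tnfrsf11a, Cd40 and Eda2r were the remaining tested receptors. Tnfrsf11a encodes RANK, the receptor of the osteoclast factor RANK ligand, and had 8.12 and 10.1 CPM in control and 11.1 and 9.09 CPM in cytoEV islets. These values overlap, and its ligand gene Tnfsf11 had 0 reads in every library. Cd40, a costimulatory receptor of antigen-presenting cells that beta cells can also express, had 1.09 and 0.679 CPM in control and 1.46 and 1.12 CPM in cytoEV islets. The groups do not overlap, but the change did not pass (0.29 ± 0.16 SE in log2 units, limma adjusted p = 0.311). Its ligand gene Cd40lg had 3 reads in cytoEV replicate 2 and 0 elsewhere. Eda2r, the receptor for the A2 form of ectodysplasin, had 1.19 and 1.86 CPM in control and 2.63 and 2.03 CPM in cytoEV islets. Both cytoEV values were higher, and the log2 change of 0.41 ± 0.17 passed only without control replicate 2 (SE, limma adjusted p = 0.188 with all libraries and 0.018 without that library, in a range of 0.018 to 0.828 over 15 alternatives).

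Compared per kilobase of exon (GENCODE M21), Tnfrsf1a ranked at the top in both groups, at 33.3 CPM per kb in control and 21.7 CPM per kb in cytoEV islets. In control islets Tnfrsf23, Ltbr and Tnfrsf21 followed with means of 11.9, 10.9 and 10.3 CPM per kb. These neighbours in the order were within their spread, since the 2 control libraries lay at 10.8 and 12.9 for Tnfrsf23, 12.3 and 9.50 for Ltbr and 10.3 and 10.2 CPM per kb for Tnfrsf21. In cytoEV islets Tnfsf10 came next after Tnfrsf1a, at 8.83 and 8.19 CPM per kb, and it overlapped with Tnfrsf21 (8.59 and 8.09) and Ltbr (7.80 and 8.38). The summed CPM of the 26 receptor genes was 271.4 and 263.2 in control and 198.4 and 197.2 in cytoEV islets. Of the 15 tested receptor genes, 3 were called lower and 1 higher, beside 3.51% and 3.16% of all tested genes. The median log2 change was −0.29 over these receptor genes and 0.09 over the 5 tested ligand genes, beside 0.01 over all tested genes. The 5 ligand genes include Tnf, which entered the test through the cytoEV libraries only, so the filter favours a higher median for them. The difference between the ligand and receptor medians was not tested.

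Markers of non-endocrine cells moved with the lower members. The summed level of 8 fibroblast or stellate cell markers was 322.1 to 382.8 CPM in control and 256.7 to 280.1 CPM in cytoEV islets, and 4 of the 8 were called lower. For 9 endothelial markers the sums were 56.7 to 58.4 and 42.8 to 45.0 CPM, and 3 were called lower. The 7 duct cell markers summed to 370.2 to 393.2 and 318.3 to 327.2 CPM (2 of 4 tested were lower), and the 9 acinar markers to 33.2 to 35.8 and 18.3 to 20.8 CPM (3 of 5 tested were lower). For 6 Schwann cell markers they were 17.6 to 19.1 and 13.6 to 15.1 CPM, and 1 of 4 tested was lower. None of the markers of these 5 cell types was at 0 in all libraries. Their part in the lower values of Tnfrsf1a, Tnfrsf23, Tnfrsf12a and Tnfsf9 was not tested, and in whole islets fewer cells of a type and less RNA per cell cannot be told apart. Beside the higher values of Tnf and Tnfrsf14, the summed macrophage markers overlapped between the groups at the levels given above, with 1 marker called higher and 1 lower of 15. The 6 dendritic cell markers summed to 12.2 to 12.5 and 15.2 to 16.2 CPM, with Xcr1 and Cd209a at 0 and with the 1 tested marker not called. The 6 B cell markers summed to 3.09 to 3.52 and 5.55 to 6.06 CPM, and the 1 tested marker was called higher. Their part in the higher values of Tnf and Tnfrsf14 was not tested.

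The 23 members that stayed under the filter comprised 12 ligand and 11 receptor genes, and none exceeded 0.986 CPM in any library. Of these, 5 had 0 reads in all 4 libraries: the ligand genes Tnfsf4, Tnfsf11, Tnfsf18 and Cd70, and Tnfrsf17, which encodes the plasma cell receptor BCMA. A count of 0 allows a level of up to 0.0192 to 0.0231 CPM, depending on the library. Including those, 13 had at most 10 reads in every library. They were the ligand genes Ltb, Fasl, Tnfsf14 and Cd40lg, and the lymphocyte receptor genes Cd27, Tnfrsf8, Tnfrsf13b and Tnfrsf13c, with the 5 at 0. Only Fas, Tnfsf13, Tnfrsf4 and Tnfsf15 had more than 10 reads in all libraries. Tnfrsf4 encodes OX40, a costimulatory receptor on T cells. It had 74 and 97 reads in control and 45 and 82 reads in cytoEV islets. Tnfsf15 had 19 and 38 and then 27 and 30 reads. For both genes the groups overlap. Tnfrsf18, the neighbour of Tnfrsf4 on chromosome 4, had 11 and 3 reads in control and 0 and 0 in cytoEV islets. Tnfsf8 had between 9 and 22 reads, and Tnfrsf19 had 6 reads in control replicate 2 and 22 in cytoEV replicate 2. None of these 23 genes was tested.

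**Figure D3:**
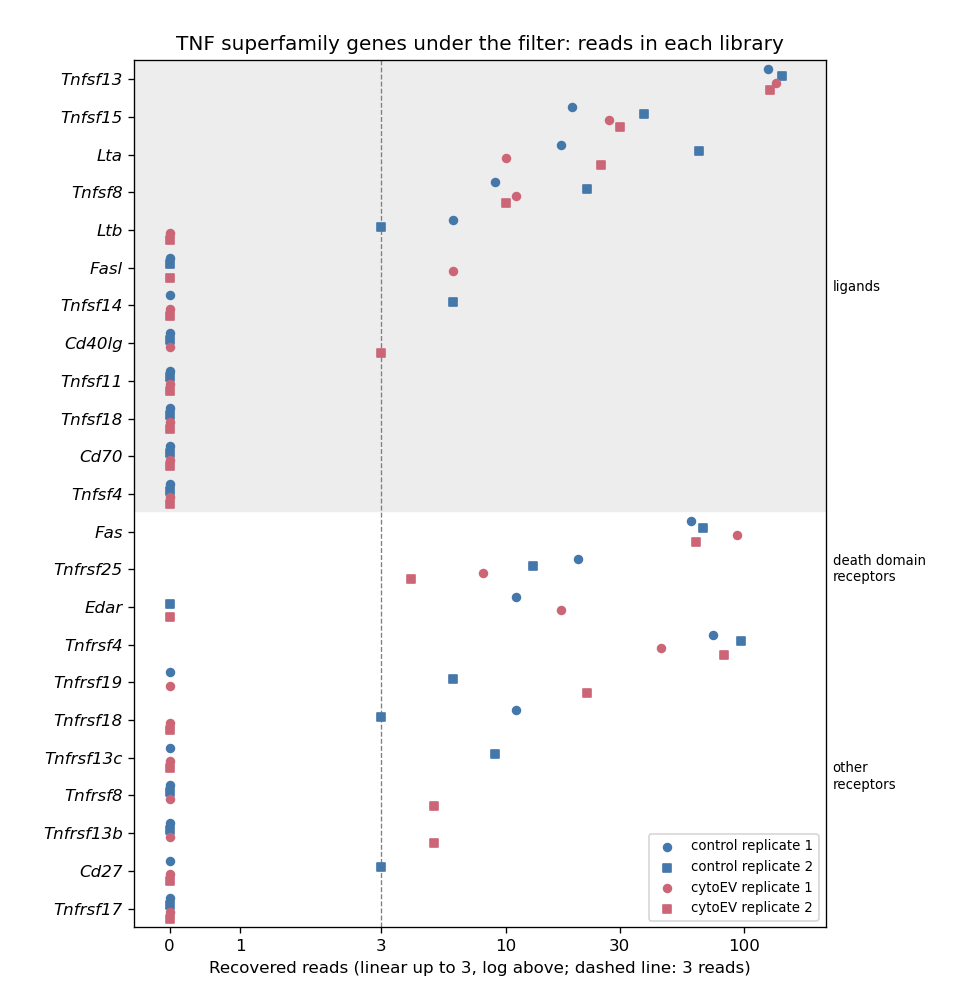
Reads of the 23 members under the filter in each library (linear up to 3 reads, logarithmic above), with circles for replicate 1 and squares for replicate 2. Tnfsf13 is at 126 to 145 reads, whereas 5 genes lie at 0 in all 4 libraries.

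Genes that act downstream of these receptors were counted on 5 lists with 55 genes, of which 54 were tested. Of these, 7 were higher and 2 lower, 16.7% in all beside the 6.67% of all tested genes, and the median log2 change was 0.04 beside 0.01 over all tested genes. These counts moved with single libraries: they were 12 and 5 without control replicate 1, 15 and 8 without control replicate 2, and 4 higher without cytoEV replicate 2. With no filter on low values they were 3 and 0. Among NF-kB subunits and inhibitors, 3 of 9 rose and 1 fell. Nfkb2 and Relb, whose products form the non-canonical NF-kB dimer, had the largest changes. Nfkb2 had 6.75 and 5.53 CPM in control and 19.0 and 18.5 CPM in cytoEV islets (log2 change 1.47 ± 0.12 SE, limma adjusted p = 0.000221). Relb had 2.59 and 2.35 CPM in control and 7.47 and 8.04 CPM in cytoEV islets, and its change in log2 units was 1.33 ± 0.12 (SE, limma adjusted p = 0.000356), or 0.77 at a pseudocount of 5. Nfkbia, for the inhibitor IkB alpha, rose by 0.66 ± 0.11 (SE, limma adjusted p = 0.00844), a call lost without cytoEV replicate 2 (0.108) and with no filter (0.0606), in a range of 2.79e-06 to 0.108 over 16 alternatives. Bcl3, which encodes an IkB-like co-regulator, fell from 12.2 and 9.89 CPM to 5.70 and 5.86 CPM (log2 change −0.82 ± 0.13 SE, limma adjusted p = 0.00724, and 0.0759 with no filter in a range of 1.19e-06 to 0.0759 over 16 alternatives).

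Of 18 tested adaptors and ubiquitin enzymes at the receptor, 2 were called higher and 0 lower, 11.1% in all beside 6.67% of all tested genes. Birc3, which encodes the ubiquitin ligase c-IAP2, had 13.6 and 13.2 CPM in control and 25.4 and 24.5 CPM in cytoEV islets. Its change in log2(CPM + 1) was 0.85 ± 0.10 (SE, limma adjusted p = 0.00172), and it passed under all 16 alternatives (adjusted p between 2.61e-11 and 0.0259). Tnfaip3, for the inhibitor A20, had 10.1 and 9.50 CPM in control and 13.8 and 13.8 CPM in cytoEV islets, a change of 0.46 ± 0.11 in log2 units (SE, limma adjusted p = 0.0429). This call was held by 7 of 16 alternatives only and was lost with the replicate block (0.0668) and when either cytoEV replicate 1 (0.411) or replicate 2 (0.378) was left out, in a range of 0.00481 to 0.411. Traf1 was not tested, with 0 and 0 reads in control and 18 and 27 reads in cytoEV islets. Fadd and Ripk1, for the death adaptor and its kinase partner, had log2 changes of 0.08 ± 0.11 and −0.23 ± 0.10 (SE, limma adjusted p = 0.704 and 0.213). Ripk1 was called lower without control replicate 1 (0.00692, in a range of 0.00692 to 0.893 over 16 alternatives).

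Among the death and survival effectors, Casp8, the initiator caspase gene of death receptors, was not called (0.16 ± 0.12 SE in log2 units, limma adjusted p = 0.471). None of 13 kinase genes passed: limma called 0, edgeR 0 and DESeq2 0, and in limma 0 had a raw unadjusted p below 0.05. Of 5 genes for shedding of ligands and receptors, 1 was called, which is 20% beside 6.67% of all tested genes. Timp3, which encodes a matrix-bound inhibitor of the TNF sheddase ADAM17, fell from 19.0 and 23.2 CPM to 11.5 and 11.0 CPM (log2 change −0.84 ± 0.12 SE, limma adjusted p = 0.00517, and 0.0625 with no filter in a range of 1.86e-09 to 0.0625 over 16 alternatives).

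**Figure D4:**
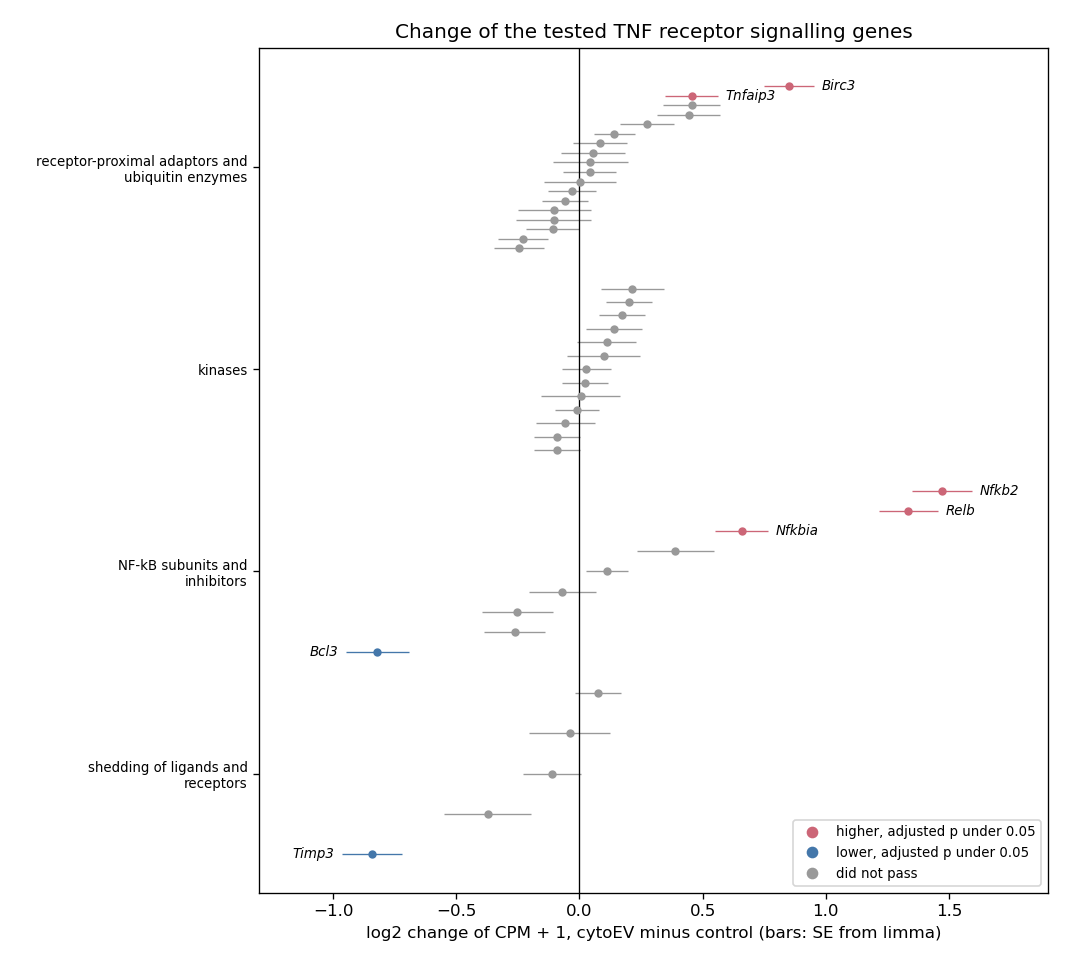
Change of log2(CPM + 1), cytoEV minus control, with limma's SE for the tested genes of 4 signalling lists (adaptors and ubiquitin enzymes, kinases, NF-kB subunits and inhibitors, and shedding). Nfkb2 at 1.47 and Relb at 1.33 stand apart on the right, and Timp3 at −0.84 and Bcl3 at −0.82 are the genes that passed on the left.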

How the data were processed

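The authors deposited 1 table of CPM values, and per the submitters' processing notes mm10, TopHat2 2.0.6, StringTie 2.1.3, R 3.6.1 and edgeR 3.1.1 were used, with no role given. Columns were matched to samples by name and replicate number. Within 0.01 of a read, 100% of the values above 0 were whole multiples of 1 read, which gave the reads. If the authors' counts were rounded estimates, these reads are too. In R 4.3.3, limma 3.58.1 compared the groups on log2(CPM + 1), with an intensity trend and 2 residual degrees of freedom, over all genes that reached 1 CPM in 2 or more of the libraries. The log2 scale with a pseudocount of 1 understates the change of low genes. Calls are at an adjusted p under 0.05, and errors are limma's SE. The count tests edgeR 4.0.16 and DESeq2 1.42.0 were alternatives on the recovered reads (edgeR called 5.67% and DESeq2 12.4% of genes). The tests were also run on simulated counts, drawn independently with an assumed dispersion. Such counts need not vary as these libraries do, and no result here rests on them. Alternatives were other pseudocounts (0.1, 0.5 and 5), filters and scalings, a replicate block, no trend and each library left out. Called members were given in full, other members by values or ranges, and of the signalling genes those called and a set of fixed ones were named. Some genes of these lists are not reported here. Members, lists and tests were chosen with earlier results of these data known. Positions are from GENCODE M21 (GRCm38, as mm10), in which 43 of 43 members matched. The limit of 3 reads that a count of 0 allows covers counting error only. Python 3.11.15, pandas 2.3.3 and matplotlib 3.10.9 were used.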

Additional observations from a re-analysis of the deposited data

How the results depend on the processing

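The 7 members called with all libraries were also called with the replicate block, with each pseudocount, in quantile, median-centred and TMM-rescaled values, without an intensity trend, in edgeR and in DESeq2. With no filter (only rows at 0 in every library left out), 1 member was called lower, 3 signalling genes were called higher and 0 lower (limma gave 4 with an unadjusted p below 0.05; with the filter, edgeR gave 2 and DESeq2 2), and 149 and 179 of all genes were called higher and lower. DESeq2 called 7 members lower, and 745 of all genes higher and 845 lower. A filter of 5 CPM, which leaves Tnf out, called 252 of all genes higher. With each library left out in turn, the members called were 3 to 4 higher and 3 to 7 lower, the signalling genes 4 to 15 and 2 to 8, and all genes 215 to 2408 and 249 to 2023. A lone library was then assumed to vary like the other group. The cause of these shifts was not tested. Among members that did not pass, leaving out a library turned the sign of 4: Tnfsf12 (−0.156 to 0.129), Tnfrsf11a (−0.0108 to 0.277), Tnfrsf9 (−0.0584 to 0.0156) and Tnfsf13b (−0.0993 to 0.277). The deviations of same-numbered libraries correlated at −0.22 over the tested genes, which are not independent. With 2 libraries a group, this value cannot show whether same-numbered samples shared mice, culture or batch. The replicate block called 3 members higher and 4 lower, 5 and 2 signalling genes, and 481 and 512 of all genes. A crossed block, chosen after seeing the data, called 5 and 7 members, 13 and 6 signalling genes, and 1469 and 1434 of all genes. With 2 libraries a group, a p above the threshold does not show that a member was unchanged.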

Other observations

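The name rule left out 3 relatives of the superfamily, which were on a list of their own. Ngfr, which encodes the low-affinity neurotrophin receptor with a death domain and is also used as a marker of Schwann and stellate cells, fell from 9.36 and 7.15 CPM in control islets to 2.70 and 2.98 CPM in cytoEV islets. The groups did not overlap, and the log2 change was −1.26 ± 0.14 (SE, limma adjusted p = 0.00141, and between 1.11e-12 and 0.0435 over 16 alternatives). Relt, an orphan receptor gene, had 46.4 and 40.8 CPM in control and 44.4 and 48.7 CPM in cytoEV islets. Eda, the ligand gene of Edar and Eda2r, had 2.88 and 4.01 CPM in control and 4.54 and 4.57 CPM in cytoEV islets, and did not pass (limma adjusted p = 0.219). It passed without control replicate 2 (adjusted p = 0.0115, in a range of 0.0115 to 0.703 over 15 alternatives).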
